A study of Homo sapiens with 9 samples.

Results

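The 10 genes described here encode the insulin-like growth factor (IGF) axis around IGFBP3: the binding proteins IGFBP3, IGFBP2, IGFBP4, IGFBP5 and IGFBP6, the receptors IGF1R, IGF2R and INSR, and the adaptors IRS1 and IRS2. They were taken by gene symbol from a table of 36650 genes, in which all 10 were present. IGFBP3 was chosen by its measured fall with 1 of the study's constructs, the dMTS form described below, so its differences between groups are a description and carry no test. Of the 10 genes, 7 had enough reads to enter the fit, IGFBP3 among them.

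The study measured messenger RNA in 16D CRPC cells, a line of castration-resistant prostate cancer, in 9 libraries and 3 groups of 3. In all 9 the gene OGDHL had been knocked out with Cas9 and a guide RNA (sgOGDHL) delivered by lentivirus. OGDHL is a paralog of the first enzyme of the 2-oxoglutarate dehydrogenase complex of mitochondria. All the cells had been adapted to the antiandrogen drug enzalutamide over 6 weeks and were held in it at 10 µM. A second lentivirus then carried eGFP, a fluorescent protein that serves as the control, or an OGDHL that the guide does not cut. That OGDHL was either full length (FL) or lacked the mitochondrial targeting sequence (dMTS). No group here is free of the OGDHL knockout or of enzalutamide. Whether the knockout cells are 1 clone or a pool is not given in the sources used here. The labels do not say that replicates were separate cultures, so p-values measure the spread between these libraries, which may be technical.

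IGF1 and IGF2 are secreted growth factors that bind IGF1R, a receptor tyrosine kinase closely related to the insulin receptor INSR. Activated receptors phosphorylate the adaptors IRS1 and IRS2, which recruit PI3 kinase and switch on AKT and then mTORC1. The IGFBPs are secreted proteins that hold IGFs away from the receptors, and IGFBP3 is their main carrier in blood. IGF2R, also known as the mannose 6-phosphate receptor, takes up IGF2 for breakdown and does not signal through a kinase. In the prostate the axis is known as a growth and survival input, and the prostate kallikreins, among them KLK3 (prostate-specific antigen), can cleave IGFBP3.

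Among those 7 genes, IGFBP3 and IGF1R had the lowest levels in the dMTS group relative to eGFP, so the DNA just upstream of both is shown. Each sequence is the 250 bases before the RefSeq gene start (GRCh38.p14), read 5′ to 3′ on the gene's strand. Capitals mark GC boxes and TATA elements. The IGFBP3 window is chr7:45921273-45921522 on the minus strand. It lies inside the longer gene interval that the deposited table gives for IGFBP3, chr7:45912245-45921874. The IGF1R window is chr15:98648289-98648538 on the plus strand and ends at the base before the gene interval of the table, chr15:98648539-98964530.
IGFBP3: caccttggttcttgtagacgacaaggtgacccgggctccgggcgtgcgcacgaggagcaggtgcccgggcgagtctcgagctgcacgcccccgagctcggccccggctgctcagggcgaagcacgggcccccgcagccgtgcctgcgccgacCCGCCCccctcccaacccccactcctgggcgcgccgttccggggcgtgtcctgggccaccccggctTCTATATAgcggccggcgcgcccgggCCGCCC
IGF1R: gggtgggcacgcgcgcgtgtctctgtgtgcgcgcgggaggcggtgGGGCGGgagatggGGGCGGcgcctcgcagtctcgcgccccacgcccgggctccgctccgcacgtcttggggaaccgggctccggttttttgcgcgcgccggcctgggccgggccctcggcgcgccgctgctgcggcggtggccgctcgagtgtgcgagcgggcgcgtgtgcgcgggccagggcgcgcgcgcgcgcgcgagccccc
Of these windows, that of IGFBP3 was 76% G or C and that of IGF1R 81.2%. Both held 2 GC boxes (GGGCGG), which start 98 and 6 bases upstream of the start in IGFBP3 and 205 and 192 bases upstream in IGF1R. IGFBP3 also held 2 TATA elements (TATANA, on either strand), overlapping each other, 32 and 30 bases upstream. IGF1R held none. Searched on both strands in 35116 windows of the same length, a GC box was found in 42.6% and a TATA element in 17.7%. Neither window held an E-box (CACGTG, in 6.34% of all windows), an AP-1 site (TGANTCA, 6.57%), a cAMP response element (TGACGTCA, 1.65%) or a forkhead element (GTAAACA, 2.98%). The SMAD palindrome (GTCTAGAC, in 0.182% of all windows) was absent from both as well. A match is a string of letters and not a measured binding site.

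The libraries had an estimated 86.3 to 121 M reads (M, 1000000). OGDHL, read first as a check of the labels, was 1.12 to 1.26 TPM (transcripts per 1000000, as deposited) in the eGFP libraries, 165 to 270 TPM with FL and 76.1 to 175 TPM with dMTS. Both forms stood above every eGFP library (exact two-sided permutation p = 0.1 for each, the smallest that 3 against 3 can give), while FL and dMTS overlapped as deposited (exact permutation p = 0.2). After the scaling described next, OGDHL was 224, 173 and 261 TPM with FL and 82.8, 144 and 126 with dMTS, with no overlap and a dMTS mean 46.3% below that of FL. That log2 fold change of -0.92 was not called (SE 0.20, adjusted p = 0.119, limma), and the groups given the 2 forms also differ in this level. Mitochondrially encoded genes took 54.9% of TPM in dMTS replicate 2 and up to 66.0% elsewhere, and the median gene of dMTS replicate 2 stood 0.28 (log2) above its mean over the libraries. Each library was therefore scaled to a median log2 ratio of 0 over the 15915 genes tested, and "scaled TPM" below means the deposited TPM after this step. A gene was called at an adjusted p under 0.05 in limma, a linear model fitted to all tested genes and all 9 libraries, with Benjamini-Hochberg adjustment over those genes. By that rule 3 genes (0.0189%) were called for FL against eGFP, 2021 (12.7%) for dMTS against eGFP and 1 (0.00628%) for dMTS against FL. The comparisons with eGFP share its 3 libraries. All 9 luminal prostate markers fixed for the check were expressed, with KLK3 at 1017 to 1265 scaled TPM. None of the 3 basal and 3 leukocyte markers in the table reached the level tested, while 1 of 3 endothelial and 2 of 3 neuroendocrine markers did.

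IGFBP3 was highest with eGFP, lower with FL and lowest with dMTS. Its level was 85.7, 86.2 and 79.5 scaled TPM in the eGFP libraries, 50.3, 49.8 and 51.1 with FL, and 33.3, 19.8 and 21.0 with dMTS. The 3 groups did not overlap, and dMTS replicate 1 was the highest of its group. The means were 83.8 ± 3.72, 50.4 ± 0.683 and 24.7 ± 7.48 scaled TPM (SD, n = 3). These means put dMTS 70.5% below eGFP (log2 fold change -1.80) and 51.0% below FL (-1.07), and neither value is tested because they chose the gene. Only 2 of the 15915 genes tested had a more negative log2 fold change for dMTS against eGFP. That rank comes from the values that chose the gene, so it restates the choice and adds no support. The libraries of dMTS lay wholly below those of eGFP for 18.2% of tested genes. As deposited, before scaling, the order of the groups was the same: 72.5 to 89.9 TPM with eGFP, 47.6 to 53.0 with FL and 20.7 to 30.6 with dMTS. IGFBP3 had 6828 to 28775 estimated reads in a library. In bulk RNA, fewer cells that express a gene and less of its RNA per cell cannot be told apart.

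With FL the mean of IGFBP3 was 39.9% below that of eGFP, a log2 fold change of -0.73. The 3 eGFP libraries of this comparison are those that chose the gene, so this value too is a description with no test. FL lay wholly below eGFP in IGFBP3, as it did for 10% of tested genes. Over 19 alternative settings the log2 fold change stayed between -0.77 and -0.71.

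**Figure D1:**
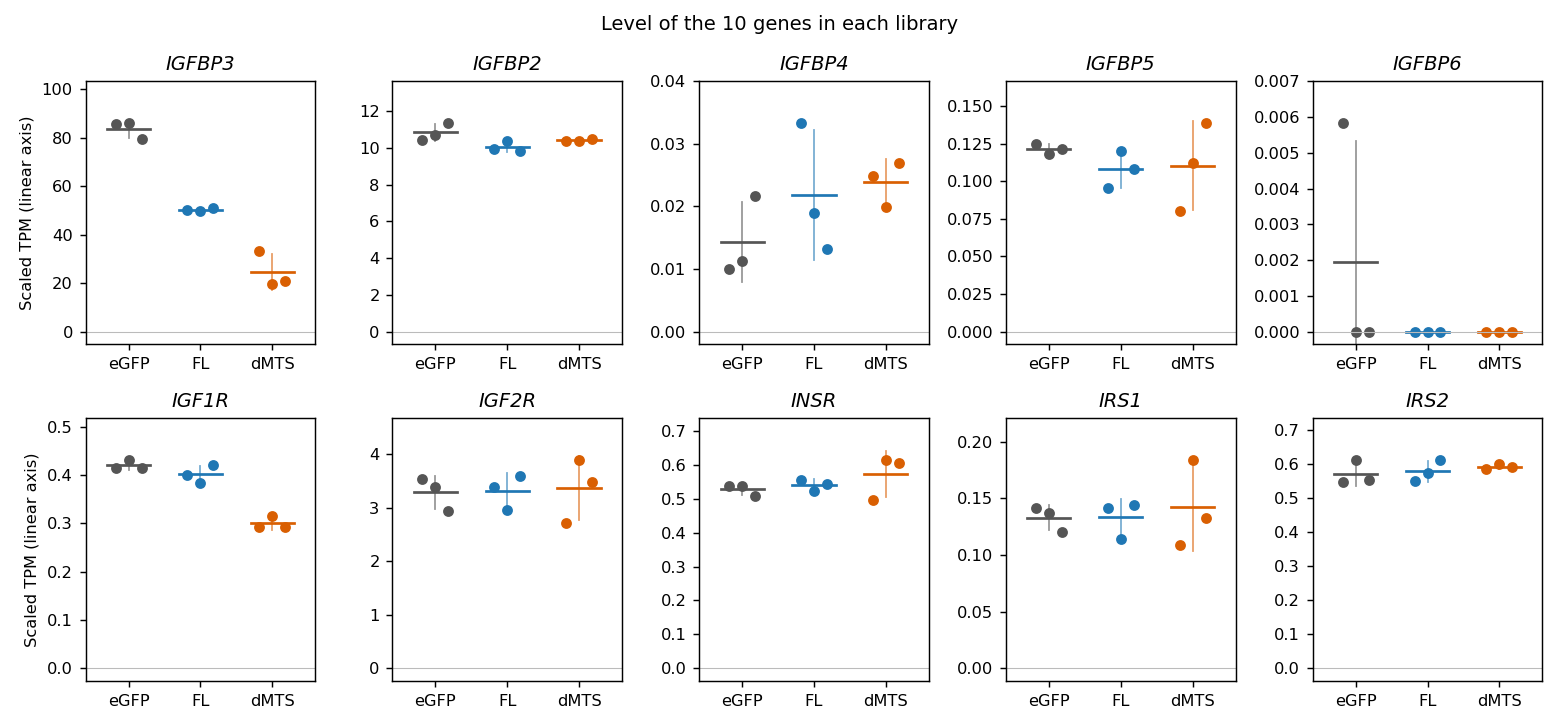
Level of each of the 10 genes in each library, in scaled TPM on linear axes that differ between panels (points, libraries; bars, mean; lines, SD; n = 3 per group). IGFBP3 separates the 3 groups and IGF1R separates dMTS, at 0.291 to 0.316, from the other 6 libraries, at 0.383 to 0.432.

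IGFBP2, a binding protein that lies beside IGFBP5 on chromosome 2 (chr2:216632828-216664436), was not called in any comparison. It measured 10.4, 10.7 and 11.4 scaled TPM with eGFP, 9.95, 10.4 and 9.82 with FL, and 10.3, 10.4 and 10.5 with dMTS. The FL libraries sat just below the eGFP libraries, and dMTS overlapped both. The log2 fold change was -0.11 for FL against eGFP (SE 0.04, adjusted p = 0.467, limma) and -0.06 for dMTS against eGFP (SE 0.04, adjusted p = 0.368, limma). The 95% interval of the dMTS to eGFP ratio was narrow, at 0.901 to 1.02.

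The remaining binding proteins were barely expressed and were not tested. IGFBP5, which also carries IGFs in matrix, had 58 to 110 estimated reads per library, at 0.118 to 0.125 scaled TPM with eGFP, 0.0957 to 0.120 with FL and 0.0800 to 0.139 with dMTS. Its dMTS libraries spanned the range of the other groups. IGFBP4 had 5 to 14 reads in each library. IGFBP6, which prefers IGF2, had 1 read in eGFP replicate 1 and was listed at 0 in the other 8 libraries.

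IGF1R, the signalling receptor for both IGFs, fell with dMTS. Its level was 0.415, 0.432 and 0.414 scaled TPM in the eGFP libraries, 0.400, 0.383 and 0.420 with FL, and 0.293, 0.316 and 0.291 with dMTS. All 3 dMTS libraries were below all 6 others, and FL overlapped eGFP. The dMTS mean was 28.6% below that of eGFP (0.300 ± 0.0136 against 0.420 ± 0.0101, SD, n = 3). The log2 fold change of -0.47 was called (SE 0.06, adjusted p = 0.00487, limma), with a 95% interval of the ratio of 0.659 to 0.788. Among the tested genes 8.11% were called lower in this comparison, and IGF1R ranked 647 of 15915 from the most negative fold change.

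This call rested on the scaling. As deposited, IGF1R read 0.435, 0.429 and 0.378 TPM with eGFP and 0.270, 0.383 and 0.287 with dMTS, so dMTS replicate 2 overlapped the controls. The log2 fold change was then -0.40 and was not called (adjusted p = 0.247, limma), in a fit where 1.29% of genes were called lower. Without the filter on low values the adjusted p was 0.0587, and under a minimum of 1 TPM the gene was not tested. It was called in the other 16 of 18 alternatives, including each fit that left out 1 library (adjusted p 0.00244 to 0.0331, limma). With a pseudocount of 1 its log2 fold change was -0.13, a value that such a pseudocount compresses at this level of TPM. The gene had 2869 to 4923 estimated reads per library. In the annotation 2 genes without a symbol overlap it, 1 of them on the same strand.

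IGF1R was also 25.1% lower with dMTS than with FL, with no overlap between their libraries, as for 9.73% of genes. The log2 fold change of -0.41 was not called (SE 0.06, adjusted p = 0.0699, limma). It passed with limma-voom on estimated reads (adjusted p = 0.0428), where 0.088% of genes were called, and without dMTS replicate 1 (0.00897), where 9.77% were. FL and eGFP differed by a log2 fold change of -0.07 (SE 0.06, adjusted p = 0.710, limma), with a 95% interval of the ratio of 0.873 to 1.04.

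**Figure D2:**
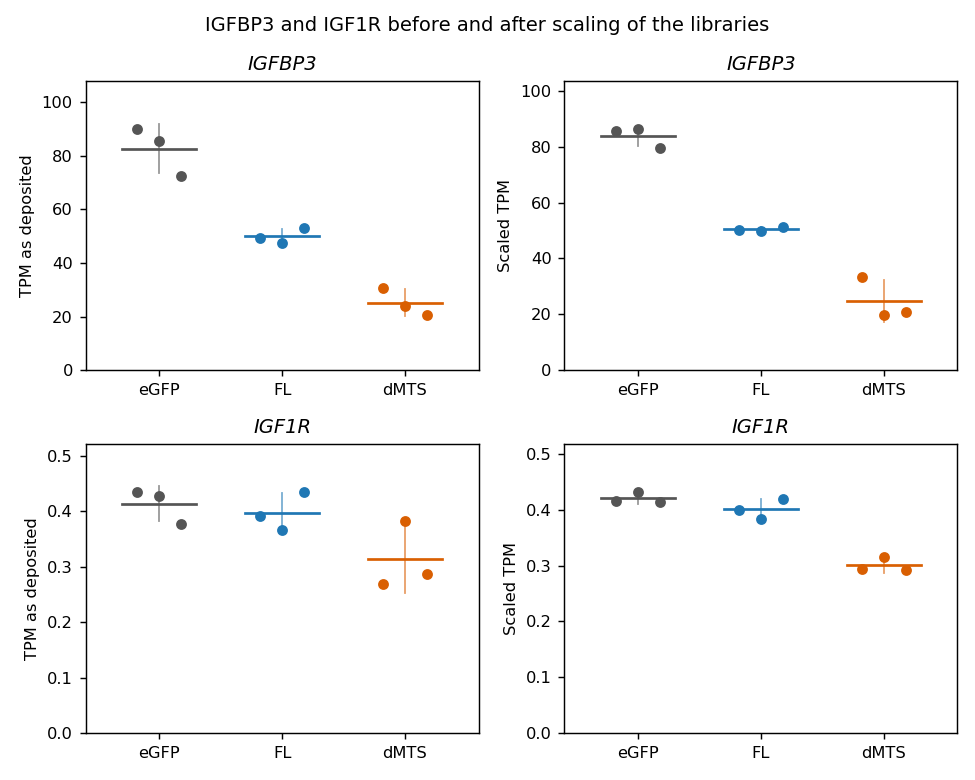
IGFBP3 and IGF1R in each library as deposited (left) and after scaling (right), in TPM on linear axes from 0 (points, libraries; bars, mean; lines, SD; n = 3 per group). For IGFBP3 the groups are apart on both scales; for IGF1R dMTS replicate 2 moves from 0.383 as deposited, among the controls, to 0.316 after scaling, beside the other dMTS libraries.

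INSR, the insulin receptor (chr19:7112255-7294414), was not called in any comparison. Its level was 0.536, 0.537 and 0.509 scaled TPM with eGFP, 0.556, 0.524 and 0.543 with FL, and 0.495, 0.615 and 0.606 with dMTS. The dMTS libraries 2 and 3 were above all others and dMTS replicate 1 was the lowest of the 9. For dMTS against eGFP its log2 fold change was 0.11 (SE 0.08, adjusted p = 0.400, limma; 95% interval of the ratio 0.947 to 1.23). Without dMTS replicate 1 it was 0.21 and was called (adjusted p = 0.0294, limma), in a fit that called 23.1% of all genes tested. For FL against eGFP it was 0.04 (adjusted p = 0.891, limma).

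The ratio of IGF1R to INSR within a library needs no scaling between libraries, and was looked at after the values of both genes had been seen. Per kilobase of exon it was 1.01, 1.05 and 1.06 with eGFP, 0.936, 0.952 and 1.01 with FL, and 0.771, 0.668 and 0.626 with dMTS. The dMTS libraries were the 3 lowest, dMTS replicate 2 included, and the eGFP libraries the 3 highest, eGFP replicate 1 by a margin too small to show in these digits. The ratio of IGFBP3 to IGFBP2, chosen in the same way, was 2.61, 2.56 and 2.23 with eGFP, 1.61, 1.53 and 1.65 with FL, and 1.02, 0.607 and 0.636 with dMTS. Both ratios are descriptions with no test, and each shows unequal change of its 2 genes only.

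IGF2R (chr6:159969082-160113507), which clears IGF2, varied more within the groups than between them. It measured 3.54, 3.39 and 2.94 scaled TPM with eGFP, 3.40, 2.95 and 3.60 with FL, and 2.72, 3.90 and 3.48 with dMTS. The groups overlapped fully, with dMTS replicates 1 and 2 at either end. Against eGFP its log2 fold change was 0.01 for FL and 0.02 for dMTS (SE 0.14 for both, adjusted p = 0.982 and 0.929, limma). The 95% interval of the dMTS to eGFP ratio, 0.819 to 1.26, is wide enough to hold a moderate change either way.

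Neither adaptor was called in any comparison. IRS1 (chr2:226731312-226799820), a docking protein for the insulin and IGF receptors, measured 0.141, 0.137 and 0.120 scaled TPM with eGFP, 0.141, 0.114 and 0.144 with FL, and 0.109, 0.184 and 0.133 with dMTS. Here too dMTS replicates 1 and 2 held the lowest and the highest value. For dMTS against eGFP the log2 fold change of IRS1 was 0.06 (SE 0.17, adjusted p = 0.830, limma; 95% interval of the ratio 0.800 to 1.36), on 214 to 490 estimated reads. IRS2 (chr13:109752695-109786583), its close relative, measured 0.548, 0.614 and 0.553 with eGFP, 0.550, 0.576 and 0.613 with FL, and 0.587, 0.601 and 0.591 with dMTS. Its log2 fold change was 0.05 (SE 0.06, adjusted p = 0.592, limma; 95% interval of the ratio 0.941 to 1.15), and the dMTS libraries lay inside the range of eGFP.

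**Figure D3:**
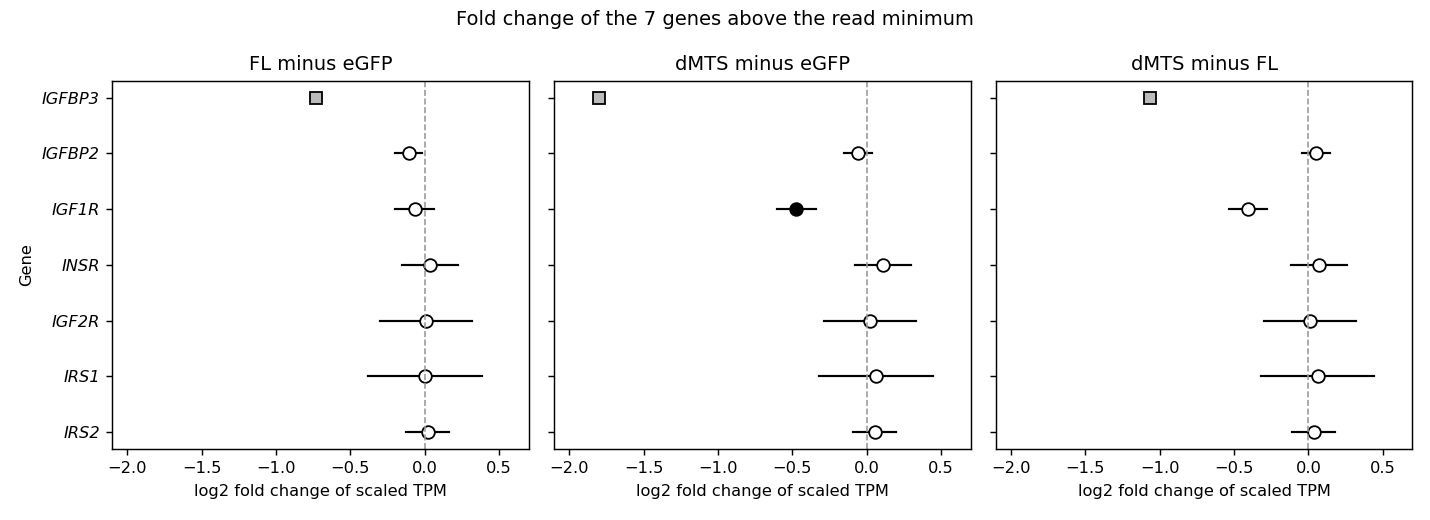
Log2 fold change of scaled TPM for the 7 genes in the fit, in each comparison (circles, limma estimate; lines, 95% interval; filled, called; grey squares, IGFBP3, which has no test). IGF1R for dMTS against eGFP, at -0.47, is the filled point, and INSR, IGF2R, IRS1 and IRS2 have intervals that cross 0 in every panel.

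Besides IGFBP3, then, 1 of 6 tested genes of the axis was called for dMTS against eGFP, beside 12.7% of all tested genes, and their median log2 fold change was 0.04 against 0.01 over all tested genes. For FL against eGFP none of the 6 was called by limma or by limma-voom (which called 0.0126% of all tested genes), and 1, IGFBP2, had an unadjusted p under 0.05, as 9.68% of all tested genes did. For dMTS against FL none of the 6 was called by limma and 1, IGF1R, by limma-voom. IGF1R alone had an unadjusted p under 0.05 there, as 16.7% of all tested genes did.

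Levels of different genes were compared per length of exon, as reads per 1000000 per kilobase of exon. Whether intronic reads were counted is not given, so the order of genes with unlike introns is uncertain. The gene span was 22.7 times the exon length for IGF1R, 17.4 times for INSR and 2.11 times for IGFBP3. In the eGFP group IGFBP3 led at 54.1 ± 3.29 (SD, n = 3), followed by IGFBP2 at 22.0 ± 0.553 and IGF2R at 8.17 ± 0.921. IGF1R at 2.92 ± 0.0926 and INSR at 2.82 ± 0.133 came next and were close. Within each of these 3 libraries IGF1R was slightly the higher, a difference that was not tested. IRS2 at 0.729 ± 0.0489 was above IRS1 at 0.280 ± 0.0279, and IGFBP5 at 0.135 ± 0.00538 was above IGFBP4 at 0.0283 ± 0.0120. In the dMTS group the top of this order changed. IGFBP3 stood at 15.9 ± 4.37 and IGFBP2 at 21.2 ± 0.789, and IGFBP2 was the higher in replicates 2 and 3 but not in replicate 1. IGF1R, at 2.09 ± 0.173, was below INSR, at 3.07 ± 0.444, in all 3 dMTS libraries. With FL, IGFBP3 was at 32.5 ± 0.636 and kept the first place over IGFBP2, at 20.4 ± 0.467.

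The ligands of the axis were scarce in these cells. IGF1 had at most 16.2 estimated reads in a library. INS was looked up with these ligands and had no entry in the deposited table. IGF2 had 86 to 157 estimated reads, at 0.132 ± 0.0301 scaled TPM with eGFP, 0.107 ± 0.00962 with FL and 0.138 ± 0.000656 with dMTS (SD, n = 3). Its log2 fold change for dMTS against eGFP was 0.09 (SE 0.14, adjusted p = 0.704, limma). For dMTS against FL it was 0.34 (SE 0.14, adjusted p = 0.265, limma). For FL against eGFP it was -0.26 (SE 0.14, adjusted p = 0.585, limma), and IGF2 was not called in any comparison. RNA in these cells does not measure IGFs supplied by the serum of the medium.

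The other genes of the pathway were taken as 6 lists by role, 77 genes in all, of which 76 were in the table and 63 were tested. For FL against eGFP limma called none of the 63, while 7 had an unadjusted p under 0.05, as 9.68% of all tested genes did. By limma-voom none was called, beside 0.0126% of all tested genes. For dMTS against FL limma called none, while 13 had an unadjusted p under 0.05, as 16.7% of all tested genes did. By limma-voom again none was called, beside 0.088% of all tested genes. For dMTS against eGFP limma called 9, 3 higher and 6 lower. That was 14.3%, beside 12.7% of all tested genes (4.59% higher and 8.11% lower). The median log2 fold change of the 63 was 0.03 against 0.01 over all. The share is near the background, so the lists do not stand out by their count.

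Of the 8 tested genes of the carrier and pappalysin list, which holds partners and proteases of the IGFBPs, 1 was higher and 1 lower. KLK2, a prostate kallikrein, fell from 24.2 ± 0.676 to 20.7 ± 1.63 scaled TPM (log2 fold change -0.23, SE 0.06, adjusted p = 0.0450, limma). With FL it was about as low, at 20.9 ± 0.959, wholly below eGFP as were 10% of tested genes. That log2 fold change of -0.21 was not called (SE 0.06, adjusted p = 0.389, limma), and dMTS against FL was -0.02. STC2, a stanniocalcin that inhibits the IGFBP protease PAPP-A, rose from 12.3 ± 0.0703 to 13.6 ± 0.157 (0.14, SE 0.03, adjusted p = 0.0315). With FL the mean of STC2 lay between, at 12.9 ± 0.365. STC1, its relative, had the largest fold change of the list, from 0.517 ± 0.0849 to 0.923 ± 0.407, and was not called (0.74, SE 0.29, adjusted p = 0.117), though it was without dMTS replicate 1 (1.07, adjusted p = 0.0111). IGFBP1, IGFALS, the acid-labile partner of IGFBP3 in blood, and the protease PAPPA were below the level tested, with at most 1, 12 and 34 reads in a library. IGFBP7 was tested, on at most 116 reads. None of the 12 tested adaptors and receptor brakes was called; the largest log2 fold change among them was that of SH2B1, an adaptor of insulin and cytokine receptors, at -0.20 (SE 0.09, adjusted p = 0.141), which was called without dMTS replicate 1 (-0.29, adjusted p = 0.0262). IRS4 was not tested, at no more than 68 reads.

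In the PI3K and AKT list 1 of 16 tested genes was higher and 3 were lower. INPPL1, which encodes the lipid phosphatase SHIP2, fell from 18.1 ± 0.817 to 13.2 ± 1.93 scaled TPM (log2 fold change -0.46, SE 0.09, adjusted p = 0.0171, limma). PIK3CD, a catalytic subunit of PI3 kinase best known in leukocytes, fell from 1.95 ± 0.0934 to 1.61 ± 0.0154 (-0.27, SE 0.05, adjusted p = 0.0125). AKT2, a kinase of the insulin response, fell from 7.06 ± 0.181 to 6.40 ± 0.110 (-0.14, SE 0.04, adjusted p = 0.0354). TRIB3, a pseudokinase that binds AKT and is induced by stress, rose from 4.07 ± 0.161 to 5.17 ± 0.110 (0.35, SE 0.06, adjusted p = 0.0131). The members that moved thus include both activating and restraining proteins of this arm. With FL the means of these genes lay between those of eGFP and dMTS. They were 16.5 ± 0.358 for INPPL1, 1.80 ± 0.0413 for PIK3CD, 6.66 ± 0.106 for AKT2 and 4.27 ± 0.346 for TRIB3. FL lay wholly below eGFP for INPPL1, PIK3CD and AKT2, as for 10% of tested genes, and overlapped it for TRIB3.

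Both genes called in the TSC and mTORC1 list, of 15 tested, restrain mTORC1. DDIT4, also known as REDD1 and induced by several stresses, rose from 113.6 ± 2.54 to 143.5 ± 10.5 scaled TPM (log2 fold change 0.33, SE 0.05, adjusted p = 0.00936, limma). TSC2, the subunit of the tuberous sclerosis complex that inactivates RHEB, fell from 8.56 ± 0.329 to 6.66 ± 0.494 (-0.36, SE 0.06, adjusted p = 0.00923). With FL, TSC2 was at 7.59 ± 0.118, wholly below eGFP as were 10% of tested genes. DDIT4 was at 113.5 ± 1.60 with FL and overlapped eGFP. In the list of FOXO factors and genes repressed by insulin 1 of 11 was called. It was KLF15, a transcription factor of fasting metabolism, which fell from 5.24 ± 0.164 to 4.62 ± 0.208 (-0.18, SE 0.05, adjusted p = 0.0425). With FL, KLF15 was at 5.20 ± 0.181 and overlapped eGFP. SESN3, a FOXO target, had the largest fold change of that list, from 7.01 ± 0.397 to 10.2 ± 2.41, and was not called (0.51, SE 0.18, adjusted p = 0.0935), though it was without dMTS replicate 1 (0.71, adjusted p = 0.00882). AKT2, KLF15 and STC2 fall outside the naming rule and were named after their values had been seen.

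Most of these pathway calls were not kept in every fit that left out 1 library. As deposited, none of the 63 genes was called, where 1.56% of all tested genes were. Leaving out 1 library gave 20 calls without dMTS replicate 1, 2 without eGFP replicate 2 or dMTS replicate 3, 4 without eGFP replicate 3, 5 without FL replicate 1 or dMTS replicate 2, and 7 to 9 without the others. The share of all genes called moved with these counts: it was 23.1% without dMTS replicate 1, the fit that called STC1, SH2B1 and SESN3, 2.02% without eGFP replicate 2 and 2.72% without dMTS replicate 3. Leaving out eGFP replicate 3 gave 3.76%, dMTS replicate 2 gave 4.02% and FL replicate 1 gave 7.62%. The remaining fits gave 6.88% (without eGFP replicate 1) to 11.1% (without FL replicate 3). TSC2 and DDIT4 were called in each of these 9 fits. PIK3CD and TRIB3 were lost without eGFP replicate 2 (adjusted p = 0.0581 and 0.0596) or dMTS replicate 3 (0.0573 and 0.0557), and INPPL1 without those (0.0626 and 0.0750) or without eGFP replicate 3 (0.0640). AKT2 was called in 4 of the 9, STC2 in 3, and KLK2 and KLF15 in 2 each. None of these 4, given in the order AKT2, STC2, KLK2 and KLF15, was called without eGFP replicate 2 (adjusted p 0.130, 0.101, 0.0975 and 0.144), eGFP replicate 3 (0.110, 0.0963, 0.134 and 0.107), dMTS replicate 2 (0.0926, 0.0827, 0.107 and 0.130), dMTS replicate 3 (0.103, 0.0991, 0.111 and 0.153) or FL replicate 1 (0.0614, 0.0594, 0.0673 and 0.0721). KLK2, KLF15 and STC2 were also lost without eGFP replicate 1 (0.0958, 0.0625 and 0.0698), and KLK2 and KLF15 without FL replicate 2 (0.0619 and 0.0541).

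**Figure D4:**
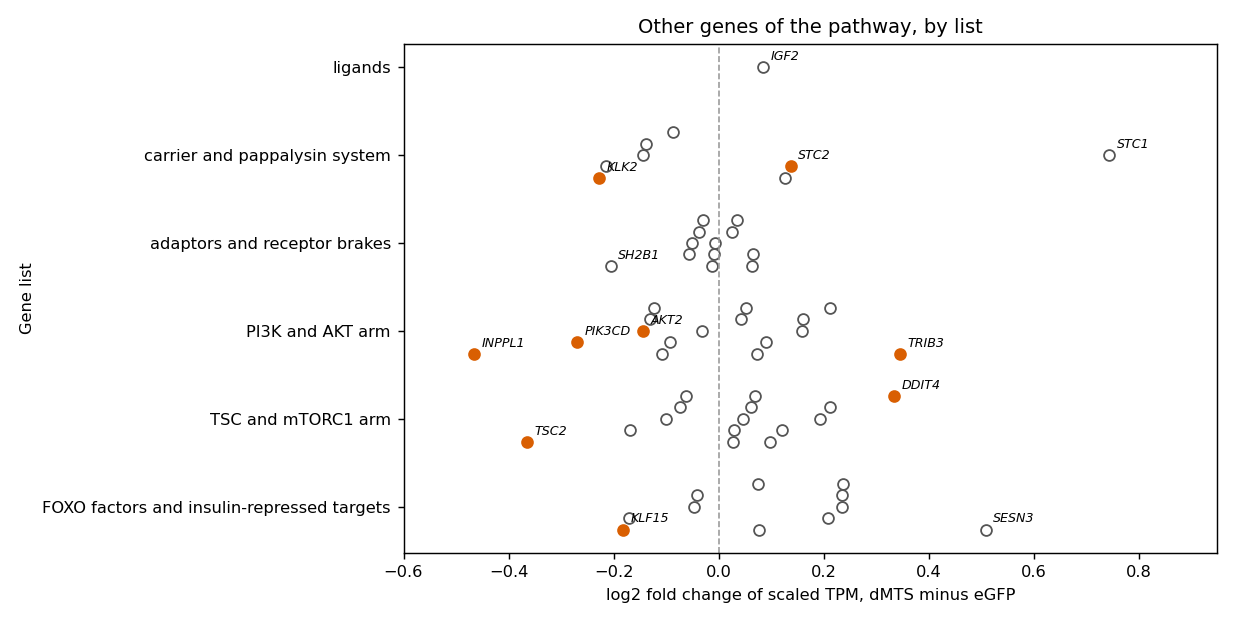
Log2 fold change of scaled TPM, dMTS minus eGFP, of the 63 tested pathway genes in 6 lists by role (circles, limma estimate of 1 gene each; filled, called; height within a list only separates the points). The 9 filled points lie on both sides of 0, from INPPL1 at -0.46 to TRIB3 at 0.35, and the points farthest right, STC1 and SESN3, were not called.

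Several genes followed IGFBP3 closely over the 9 libraries. The 5 with the highest Pearson correlation of log2 scaled TPM were AGR2 (r = 0.999), TLE1 (0.996), FAXDC2 (0.995), MTERF4 (0.994) and BRINP1 (0.994). AGR2, a disulfide isomerase of the secretory pathway, had 1.91 ± 0.0806 scaled TPM with eGFP, 1.27 ± 0.0424 with FL and 0.676 ± 0.174 with dMTS (SD, n = 3). TLE1, a transcriptional corepressor, had 0.503 ± 0.0151, 0.439 ± 0.00467 and 0.342 ± 0.0280, and so moved over a narrower range. The 3 most negative were FADS2, a fatty acid desaturase (-0.992), HSPA9, the mitochondrial chaperone mortalin (-0.991), and XBP1, a transcription factor of the unfolded protein response (-0.990). FADS2 had 12.7 ± 0.239 scaled TPM with eGFP, 15.0 ± 0.479 with FL and 18.4 ± 1.57 with dMTS. Of the axis itself IGF1R came nearest (r = 0.892), INSR ran the other way (-0.653) and IGFBP2 was weak (0.297). The 9 points share 3 groups, and 4.67% of the 14384 tested genes with a symbol had r above 0.9 and 2.25% below -0.9, so a high value is common here.

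Fibroblasts and stroma also make IGFBPs, so their markers are given beside IGFBP3. Of 6 fibroblast or stromal markers, only COL1A1 reached the level tested. It measured 2.98 to 3.34 scaled TPM with eGFP, 2.78 to 3.03 with FL and 2.00 to 2.85 with dMTS. The summed level of the 6, in reads per 1000000, was 18.01 to 19.2 with eGFP, 16.9 to 17.8 with FL and 13.4 to 16.3 with dMTS. It went down in the order of IGFBP3, but most of it was COL1A1, at up to 17.6, 16.2 and 14.9. LUM measured 0.178 to 0.200 scaled TPM with eGFP and 0.160 to 0.230 with dMTS. PDGFRB measured 0.0477 to 0.0676 and 0.0492 to 0.0809, and COL3A1 0.0232 to 0.0478 and 0.0231 to 0.0309. These 3 overlapped between the groups, and LUM and PDGFRB had their highest value with dMTS. COL1A2 and DCN were at or near 0, at most 9 and 18 reads in a library, with COL1A2 at 0 in all dMTS libraries. The part of COL1A1 in the result was not tested.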

How the data were processed

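Per the labels' protocols, mRNA-enriched stranded libraries were primed at random and read as pairs of 50 bases. The submitters' processing notes list STAR and GRCh38, with no version; neither the quantifier nor the handling of intronic reads is given in the sources used here. The authors deposited TPM for 36650 genes and 9 libraries. Each column sums to 1000000, and the length column equals the genomic span, so TPM understate genes with long introns, and levels between genes were set per exon length (GENCODE 29). TPM times length fell within 0.01 of whole multiples of 1 read for 72.3% to 74.9% of values under 20 reads, which gave the estimated depths; they are estimates, so no counting interval is given.

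Genes with at least 1 read per 1000000 in at least 3 of 9 libraries were tested (15915, 43.4%), by reads and not by TPM so as to keep long genes such as IGF1R. limma 3.58.1 (R 4.3.3; lmFit, eBayes with trend) was fitted to log2(scaled TPM + 0.01) in all 9 libraries, with 6 residual degrees of freedom and no covariate, two-sided, with Benjamini-Hochberg adjustment. Fold changes are on that scale. The model was also run on simulated data with noise drawn independently for each gene. That run holds no deviation shared by a whole library, so it is no support for the calls here. OGDHL was compared by exact permutation. A planned test of IGFBP3 for FL against eGFP is not reported, since the same eGFP libraries chose the gene.

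The members, gene lists and tests were chosen with earlier results of these data known. Named genes were the 10 members, OGDHL, up to 6 called pathway genes per comparison and the top gene of each list by fold change, and the 5 genes most like and 3 most unlike IGFBP3. Alternatives were other scalings, pseudocounts and filters, the replicate number as a block, 6 libraries only, robust eBayes, limma-voom on estimated reads and each library left out.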

Additional observations from a re-analysis of the deposited data

How the results depend on the processing

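No alternative turned a called fold change around. For FL against eGFP, 3 genes were called; the count was 1 as deposited, scaled to an equal read total, with the block and with robust eBayes, 27 without a filter and 11 with 6 libraries, and 1 to 13 with a library left out (13 without dMTS replicate 1). For dMTS against eGFP, 2021 were called; the count was 249 as deposited, 755 without a filter, 1220 at 1 TPM, 772 with the block and 808 with 6 libraries, and 321 (without eGFP replicate 2) to 3673 (without dMTS replicate 1) with a library left out. For dMTS against FL, 1 was called; the count was 2 as deposited, 22 without a filter, 0 with the block or 6 libraries and 14 with limma-voom, and 0 to 1551 (without dMTS replicate 1) with a library left out.

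Of the axis, 0 genes were called for FL against eGFP, but 1 with 6 libraries, and 0 to 1 with a library left out; the 1 is IGFBP3, whose eGFP libraries also chose it, so it is no test. For dMTS against eGFP 1 was called besides IGFBP3, but 0 as deposited, without a filter or at 1 TPM, and 1 to 2 with a library left out. For dMTS against FL, again besides IGFBP3, 0 were called, but 1 with limma-voom, and 0 to 1 with a library left out. Of the pathway genes 9 were called for dMTS against eGFP, but 0 as deposited, 5 with the block and 4 with 6 libraries, and 2 to 20 with a library left out; for dMTS against FL the count was 0, and 0 to 9 with a library left out. Causes were not tested.

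The labels do not say what libraries with the same replicate number share. Deviations of same-numbered libraries correlated at -0.60 to 0.12 across groups. Pairs with different numbers were not set beside them, so these values cannot decide whether the numbers pair the libraries. The block counts above describe a shared number only.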
